A study of Mus musculus with 18 samples.

Results

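Fc receptors and the proteins that carry or restrain their signals were read in the kidney cortex of 5 mouse strains after challenge with anti-glomerular basement membrane (anti-GBM) antibody. The set holds 9 genes, named as a functional group, with no value of these arrays in the rule: Fcgr1, Fcgr2b, Fcgr3, Fcer1g, Fcgrt, Syk, Tyrobp, Ptpn6 and Lyn. All probes annotated with these symbols were taken, out of 34509 symbols, which gave 11 of the 46643 probes in the table of B6 and NZW. In the table of BALB/c, DBA1 and 129/svj, with 46147 probes and no gene symbols, 8 of the 11 were found again through a shared search key. The single probes of Fcgr1, Tyrobp and Lyn had no such key and were read in B6 and NZW only.

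Anti-GBM antibodies deposit along the glomerular basement membrane and present their Fc ends to cells that carry Fc receptors. The activating receptors for IgG, among them the high affinity receptor Fcgr1 and the low affinity receptor Fcgr3, assemble with the common gamma chain, encoded by Fcer1g, whose tyrosine motif (ITAM) is phosphorylated by Src family kinases such as Lyn and then binds the kinase Syk. Fcgr2b is the inhibitory IgG receptor of B cells and myeloid cells, and signals through a motif (ITIM) that recruits phosphatases. Tyrobp (DAP12) is a second ITAM adaptor of myeloid and NK cells, and Ptpn6 (SHP-1) is a phosphatase that dampens ITAM signals. Fcgrt is the heavy chain of the neonatal Fc receptor, which returns IgG and albumin from endosomes and is abundant in kidney epithelium.

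The study asked how gene expression differs between strains that resist anti-GBM nephritis and strains that develop it. Total RNA of the kidney cortex had been hybridised to Illumina Mouse WG-6 v1 BeadChips, with 3 mice of 2 months of age in each of 5 inbred strains, 15 mice in all. B6 and BALB/c are labelled resistant, and DBA1, 129/svj and NZW sensitive. Every mouse had received the antibody and no unchallenged mouse was read, so differences that strains have without challenge and differences in response to it cannot be told apart. In BALB/c, DBA1 and 129/svj the first mouse of each strain had been hybridised again, and its 2 arrays were averaged, so that 18 arrays were used. Nothing in the labels says that the mice of a strain came from separate litters or cages, and the p-values measure the spread between these mice.

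Strains were compared within their table, because the tables were normalized separately. Median deposited signals were 81.1 to 89.8 over the 6 arrays of B6 and NZW and 119 to 152 over the 12 arrays of the other table, and 30.5% to 36.4% of probes on an array were detected, that is, had a detection p-value of 0.05 or less against the negative control beads. A member probe was read on 17 to 65 beads per array (median 40). Markers of proximal tubule, the main tissue of the cortex, were detected in every mouse of B6 and NZW for 7 of 7 genes, and podocyte markers for 4 of 5. Of 6 general leukocyte markers, 3 were detected in every B6 and every NZW mouse and 3, Ptprc among them, in none. In whole cortex, fewer cells of a type and less RNA per cell cannot be told apart. B6 mouse 2 and 129/svj mouse 3 had the highest summed macrophage and neutrophil markers of their strains, and member differences that these mice moved are given without them too.

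Levels below are log2 values after background correction and quantile normalization, on a scale where the lowest detected probe of an NZW mouse lay between 5.25 and 5.37, and a level of one probe is not compared with that of another. Between B6 and NZW, 7 of the 11 member probes passed the filter (detected in at least 3 mice), and 2 differed at an adjusted p below 0.05 in limma, Fcer1g and Fcgr2b, both higher in B6. Of the 16766 probes tested there, 9.24% were higher and 9.6% lower in B6. Fcer1g passed the filter through the B6 mice alone. Scaling each array to its 75th percentile moved the split over all probes from 1549 higher and 1610 lower to 1352 higher and 2269 lower, and the median of all tested probes from -0.04 to -0.13.

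In the table of the other 3 strains, 4 member probes passed the filter, those of Fcgr2b, Fcgr3, Fcgrt and Ptpn6. BALB/c against DBA1 gave 1 call, Fcgr2b lower in BALB/c, where 2.86% of the 15817 tested probes were higher and 2.89% lower in BALB/c. BALB/c against 129/svj gave 1 call, Fcgrt lower in BALB/c, with 2.47% of all probes higher and 2.36% lower. DBA1 against 129/svj gave 2 calls, Fcgr2b higher and Fcgrt lower in DBA1, with 2.17% higher and 2.31% lower over all probes. The 3 comparisons share strains, so a high or low strain enters more than one of them.

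**Figure D1:**
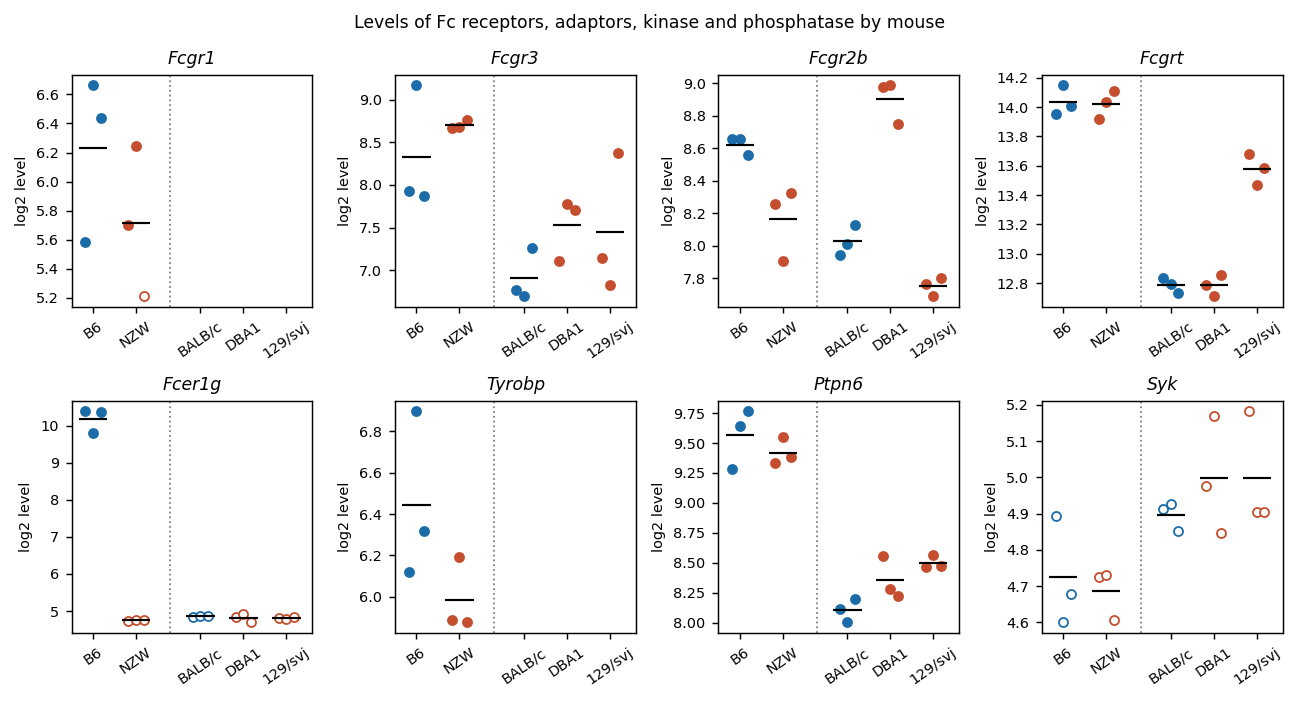
Normalized log2 level of 8 member probes (y axis) in each mouse, by strain (x axis), with resistant strains in blue and sensitive strains in red. Filled points were detected, open points were not, the line is the strain mean, and the dotted line parts the 2 tables, whose levels are not comparable. Fcer1g was detected in the 3 B6 mice and in no other mouse, and Fcgr2b was highest in DBA1 within its table.

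**Figure D2:**
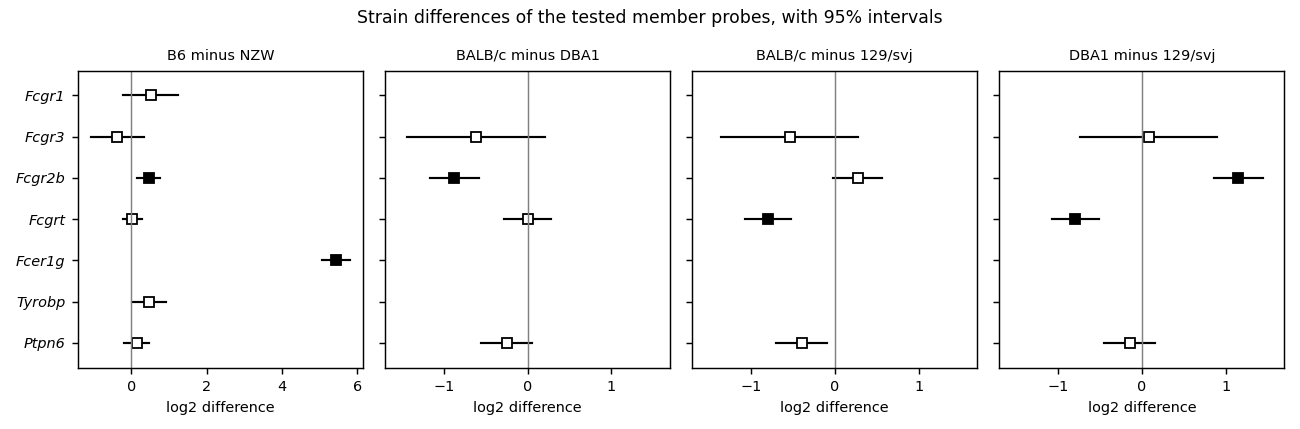
Difference between strains in log2 level (x axis, first strain minus second) for each tested member probe, with 95% intervals from limma. Filled squares have an adjusted p below 0.05, and the first panel has a wider x axis than the others so that Fcer1g fits, whose fitted difference of 5.44 is against an NZW group at background and has only a lower bound.

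Promoters are shown for the 3 members whose level differed between strains, and for Fcgr1, whose window held both of the motifs searched. Each line gives the 250 bases before the RefSeq start of the gene on GRCm38.p6, written 5′ to 3′ along the gene's strand, with motif matches in capitals. The motifs were GAGGAAG, a core bound by the myeloid factor PU.1, and TTCNNNGAA, the form bound by STAT factors after interferon gamma. Both strands were searched and no match of one overlapped one of the other.
Fcer1g, chr1:171234350-171234599, minus strand: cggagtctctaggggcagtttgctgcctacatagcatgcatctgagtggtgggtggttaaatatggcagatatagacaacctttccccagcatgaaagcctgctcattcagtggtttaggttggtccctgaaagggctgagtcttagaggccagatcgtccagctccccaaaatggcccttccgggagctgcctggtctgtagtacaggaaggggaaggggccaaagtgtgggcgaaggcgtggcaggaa
Fcgr2b, chr1:170976072-170976321, minus strand: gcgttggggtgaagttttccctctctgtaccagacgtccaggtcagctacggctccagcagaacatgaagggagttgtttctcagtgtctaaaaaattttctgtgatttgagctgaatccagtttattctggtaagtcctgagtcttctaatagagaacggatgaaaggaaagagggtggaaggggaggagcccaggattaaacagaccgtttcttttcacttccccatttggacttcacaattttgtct
Fcgrt, chr7:45103823-45104072, minus strand: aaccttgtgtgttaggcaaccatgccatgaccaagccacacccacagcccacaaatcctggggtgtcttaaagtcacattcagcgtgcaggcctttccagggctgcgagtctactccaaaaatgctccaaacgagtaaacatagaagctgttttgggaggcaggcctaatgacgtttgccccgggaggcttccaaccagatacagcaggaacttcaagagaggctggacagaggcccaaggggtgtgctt
Fcgr1, chr3:96293970-96294219, minus strand: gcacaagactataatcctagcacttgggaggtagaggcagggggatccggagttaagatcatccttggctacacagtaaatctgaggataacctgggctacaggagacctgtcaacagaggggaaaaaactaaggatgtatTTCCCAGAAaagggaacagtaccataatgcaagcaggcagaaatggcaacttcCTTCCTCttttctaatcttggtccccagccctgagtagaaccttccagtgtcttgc
RefSeq held a promoter for 7 of the 9 members. In Fcgr1, GAGGAAG lay 56 to 50 bases before the start on the opposite strand and TTCNNNGAA 109 to 101 bases before it. In Fcgr3, GAGGAAG lay 7 to 1 bases before one of its listed starts and 16 to 10 before another, also on the opposite strand. Of all 32536 promoter windows of this length, 10.7% held GAGGAAG and 7.04% held TTCNNNGAA. The other promoters, including those of Fcer1g, Fcgr2b and Fcgrt, held neither string, which says only that these letters are not in these windows.

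Of the activating receptors, Fcgr1, the high affinity receptor for IgG of monocytes and macrophages, was near the limit of detection. Its level was 5.58, 6.66 and 6.44 in the B6 mice and 5.70, 6.24 and 5.21 in the NZW mice, of which the last was not detected. The groups overlapped, and the difference of 0.51 (SE 0.32, 95% interval -0.22 to 1.24, n = 3 and 3, limma adjusted p = 0.318) was not larger than the spread between mice. It was 0.29 without B6 mouse 2, and 0.26 to 0.83 over the 6 mice left out in turn.

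Fcgr3, the low affinity activating receptor of macrophages, neutrophils and NK cells, was detected in all 15 mice. It stood at 8.67, 8.68 and 8.76 in NZW and at 7.93, 9.17 and 7.87 in B6. The NZW mice lay close together, and 2 B6 mice lay below them and 1 above. The difference of -0.38 (SE 0.31, adjusted p = 0.446 in limma) did not pass the test. B6 mouse 2, the high one, also had the highest levels of Fcgr1 and Tyrobp among the 6 mice and the highest summed macrophage markers (8131, against 3550 to 5326 in the others), whose part was not tested. Without it the difference was -0.80 (SE 0.13, limma adjusted p = 0.00573). This rests on which B6 mouse is left out. The difference was -0.18 without B6 mouse 1 (limma adjusted p = 0.778) and -0.15 without B6 mouse 3 (limma adjusted p = 0.807).

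In the other table Fcgr3 was 6.77, 6.70 and 7.26 in BALB/c, 7.10, 7.78 and 7.70 in DBA1 and 7.14, 6.82 and 8.38 in 129/svj. All 3 strains overlapped. BALB/c minus DBA1 was -0.62 (SE 0.37, 95% interval -1.44 to 0.20, limma adjusted p = 0.433) and BALB/c minus 129/svj -0.54 (SE 0.37, adjusted p = 0.568). One mouse sets the 129/svj mean: without 129/svj mouse 3, BALB/c minus 129/svj was -0.07 and DBA1 minus 129/svj 0.55 in place of 0.08, and none of these passed the test. The summed macrophage markers of that mouse were 1336, against 517 and 316 in its strain mates, and its summed neutrophil markers 1072, against 337 and 69.5; their part in the Fcgr3 level was not tested.

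Fcgr2b, the inhibitory IgG receptor, had 3 probes. One, ILMN_1228657, was detected in every mouse, and the others, ILMN_1254789 and ILMN_2447970, in none, so the results rest on 1 probe. Fcgr2b, Fcgr3 and Fcgr4 are close relatives in sequence, and the files give no probe sequences, so hybridisation of one gene's probe to another's transcript was not checked. In DBA1 its level was 8.97, 8.99 and 8.75, in BALB/c 7.94, 8.01 and 8.13, and in 129/svj 7.77, 7.69 and 7.80. The 3 strains did not overlap, with DBA1 at the top. BALB/c was lower than DBA1, with a difference of -0.87 (SE 0.13, 1.83-fold, limma adjusted p = 0.00287), and DBA1 was 1.15 higher than 129/svj (SE 0.13, 2.22-fold, adjusted p = 0.000469). BALB/c and 129/svj differed by 0.27 (SE 0.13, 95% interval -0.02 to 0.56, adjusted p = 0.364), which did not pass. Repeat arrays of the same mouse differed by -0.18 in BALB/c, -0.20 in DBA1 and 0.16 in 129/svj for this probe. The summed macrophage markers were also higher in every DBA1 mouse (1012 to 2026) than in every BALB/c mouse (324 to 482), and their part in the Fcgr2b difference was not tested.

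In B6 the same Fcgr2b probe read 8.66, 8.66 and 8.56, and in NZW 8.26, 7.91 and 8.33. All B6 mice lay above all NZW mice, by 0.46 on average (SE 0.13, 1.37-fold, adjusted p = 0.0441 in limma). This call is at the edge of the threshold, and before normalization the signals of the strains overlapped, at 395 to 485 in B6 and 314 to 407 in NZW. It was lost under 5 of 10 alternative settings, at adjusted p from 0.0617 to 0.123, and on leaving out any mouse except NZW mouse 3, at values of 0.33 to 0.50. With a replicate block the adjusted p was 0.0752. The resistant strain was thus the higher one in this pair. In the other table the resistant BALB/c was lower than DBA1, and above 129/svj in every mouse, by 0.27, which did not pass the test.

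**Figure D3:**
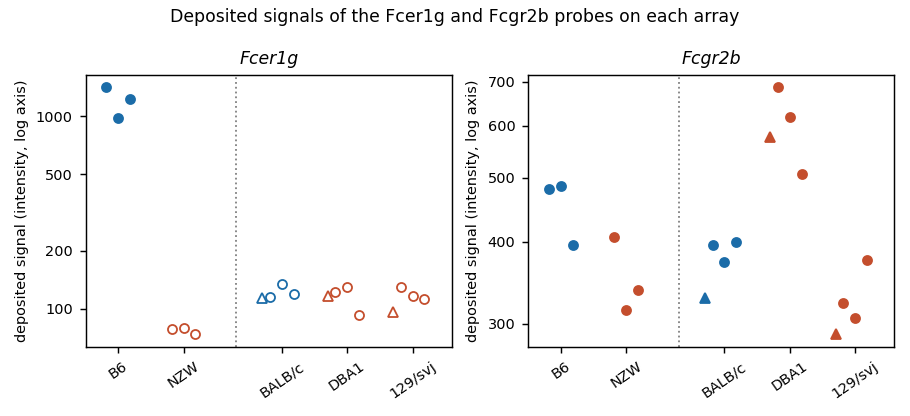
Deposited scanner signal (y axis, intensity on a log scale, before any correction) of the Fcer1g and Fcgr2b probes on each of the 18 arrays, by strain (x axis). Circles are the first array of a mouse and triangles its repeat array, filled where the probe was detected, and the dotted line parts the tables. Fcer1g read 980 to 1421 in B6 and 73.3 to 79.0 in NZW.

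Fcgrt, the neonatal Fc receptor, was detected in all 15 mice and differed in 129/svj. Its level was 13.68, 13.47 and 13.59 there, 12.83, 12.79 and 12.73 in BALB/c and 12.79, 12.71 and 12.86 in DBA1. All 129/svj mice lay above all others of the table, while BALB/c and DBA1 overlapped. BALB/c minus 129/svj was -0.79 (SE 0.12, 1.73-fold, limma adjusted p = 0.0037), and DBA1 minus 129/svj was also -0.79 (SE 0.12, adjusted p = 0.00415). BALB/c minus DBA1 was -0.0011 (95% interval -0.28 to 0.28).

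In the other pair, Fcgrt was 13.95, 14.15 and 14.01 in B6 and 13.92, 14.03 and 14.11 in NZW. These strains overlapped and differed by 0.02 (SE 0.11, 95% interval -0.23 to 0.27, adjusted p = 0.938 in limma). The sensitive 129/svj and DBA1 thus stood apart from each other in Fcgrt, and the resistant BALB/c stood with DBA1. Both Fcgrt calls held under each alternative setting and with each mouse of the table left out.

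Fcer1g, the common gamma chain on which the activating Fc receptors depend, was detected in 1 strain alone. The deposited signal of its probe was 1421, 980 and 1232 in the B6 mice and 78.0, 79.0 and 73.3 in the NZW mice, with detection p-values of 0 in B6 and of 0.536 to 0.611 in NZW. On the 12 arrays of BALB/c, DBA1 and 129/svj it was 92.2 to 135, with detection p-values of 0.462 to 0.867. The probe was thus detected in the 3 B6 mice and in none of the 12 mice of the other strains. It was read on 23 to 27 beads in B6 and 17 to 30 in NZW.

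The normalized Fcer1g level was 10.39, 9.82 and 10.38 in B6 and 4.73, 4.76 and 4.76 in NZW. Because the NZW mice gave no signal above background, only a bound can be set, and B6 was at least 29.2-fold higher, taking the lowest detected level of each NZW array for that mouse (limma adjusted p = 1.23e-07). The fitted difference of 5.44, and its p, are against a group at background, and the probe entered the test through the B6 mice alone. Fcer1g was 1 of 54 of the 19886 paired probes (0.272%) that were detected in every B6 mouse and in no mouse of the other 4 strains. NZW had 26 probes detected in its mice alone, BALB/c 2, 129/svj 2 and DBA1 1. In BALB/c, 129/svj and DBA1 a probe also had to be detected on the repeat array, so their counts are not compared with those of B6 and NZW.

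The other members do not share this pattern: Fcgr3 and Ptpn6 were detected in all 15 mice, and Tyrobp in all 6 mice in which it could be read. The mean Fcer1g level of the other strains was 4.75 in NZW, 4.86 in BALB/c, 4.82 in DBA1 and 4.81 in 129/svj. The files give neither the sequence nor the position of the probe, so whether it fits the transcript equally in all strains was not tested. The call held under all 9 alternative settings in which the probe could be tested and with each NZW mouse left out. All NZW mice were at background, so leaving any of them out could hardly change it. With a B6 mouse left out the probe no longer met the filter of 3 mice with detection, so no value was obtained.

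Tyrobp, the DAP12 adaptor, was detected at a low level. It was 6.12, 6.90 and 6.32 in B6 and 5.89, 6.19 and 5.88 in NZW. The lowest B6 mouse lay below the highest NZW mouse, and the difference of 0.46 (SE 0.20, 95% interval 0.0034 to 0.91, adjusted p = 0.152 in limma) did not pass. Without B6 mouse 2, the highest, it was 0.23 (SE 0.16, adjusted p = 0.419).

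Neither kinase was detected. The Syk probe lay between 4.60 and 5.18 in all 15 mice, with the NZW mice at 4.61 to 4.73, and the Lyn probe between 4.47 and 4.59 in the 6 mice of B6 and NZW. Syk and Lyn carry the signal from the ITAM, and at this sensitivity their levels could not be compared between strains.

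Ptpn6, the SHP-1 phosphatase of leukocytes, was detected in every mouse. It was 9.28, 9.64 and 9.76 in B6 and 9.33, 9.55 and 9.38 in NZW, which overlapped (difference 0.14, SE 0.14, limma adjusted p = 0.547). In the other table it was 8.11, 8.002 and 8.19 in BALB/c, 8.56, 8.28 and 8.22 in DBA1 and 8.46, 8.56 and 8.47 in 129/svj. Each BALB/c mouse lay below each mouse of the other strains. The differences, -0.25 from DBA1 (SE 0.14, adjusted p = 0.388) and -0.39 from 129/svj (SE 0.14, adjusted p = 0.183), did not pass after adjustment.

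The resistant strains were set against the sensitive ones as the mean of 2 differences, B6 minus NZW and BALB/c minus the mean of DBA1 and 129/svj, over probes paired between the tables and normalized together. Of 6896 such probes, 6.54% were higher and 5.45% lower in the resistant strains. Among the members, 5 probes were tested and 1 was called, Fcer1g, higher (limma adjusted p = 6.36e-11). This call rests on B6, since the probe was at background in the other 4 strains and entered the test through the B6 mice, so the size of the mean, fitted at 2.53, is not determined. The call was lost with strain as a random block (limma adjusted p = 0.106). It was also lost with the methods' t-test after adjustment. That test pooled the mice of each group over both tables, so it did not test the mean of the 2 differences.

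The 2 parts of this mean were also tested against each other, and 10.3% of the 6896 probes differed in either direction. Fcer1g and Fcgr2b were among them. For Fcgr2b the B6 part was 0.36 and the BALB/c part -0.31, a difference of -0.67 (SE 0.17, adjusted p = 0.0213), and their mean was 0.03 (SE 0.09, adjusted p = 0.899). Fcgrt had parts of -0.0041 and -0.34, Ptpn6 of 0.13 and -0.33 and Fcgr3 of -0.41 and -0.62, and in these 3 neither the mean nor the difference of the parts passed the test. For each of the 5 probes the resistant against sensitive difference was therefore either not called or called from the B6 mice.

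Further genes of immune complex signalling were read from lists of 103 genes in 5 groups, with 1 probe per gene. Between B6 and NZW, 95 had a probe and 48 were tested, of which 6 were higher and 4 lower in B6, where 9.24% of all tested probes were higher and 9.6% lower. These counts lie near the shares over all probes. The listed genes had a median of 0.02 against -0.04 over all tested probes. Trem2, a macrophage receptor that signals through Tyrobp, passed the filter through the B6 mice alone, with detection in 3 B6 and 0 NZW mice, and was at least 2.72-fold higher in B6. Pik3ap1, an adaptor for PI3 kinase, was 1.57 higher (SE 0.17, adjusted p = 0.000317 in limma). Lowest in B6 relative to NZW was Ptpn22, a phosphatase of lymphocytes and myeloid cells, at -1.75 (SE 0.16, adjusted p = 9.55e-05). Pigr, the transporter of polymeric immunoglobulin, differed by -1.58 (SE 0.18, adjusted p = 0.000428), and Pik3cb, a PI3 kinase catalytic subunit, by -1.10 (SE 0.11, adjusted p = 0.000214).

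By group, 1 of 2 tested other Fc and Fc-like receptors was higher and 1 lower. Of 3 tested ITAM partners 1 was higher, of 25 kinases and adaptors 2 were higher and 1 lower, and of 13 inhibitory receptors, phosphatases and ubiquitin ligases 1 was higher and 2 lower. Fcgr4, the activating receptor next to Fcgr2b and Fcgr3 on chromosome 1, is named here after its values were seen: it was 9.79 in B6 and 8.43 in NZW on average, a difference of 1.36 (SE 0.17, 2.56-fold, limma adjusted p = 0.000629). Like Fcgr1 and Fcgr3, Fcgr4 is carried to the surface with the Fcer1g chain.

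**Figure D4:**
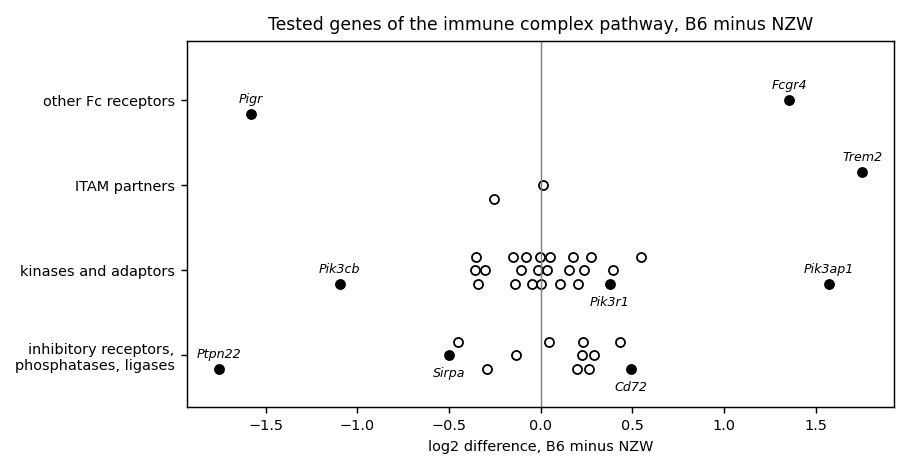
Difference in log2 level between B6 and NZW (x axis, B6 minus NZW) for the tested genes of 4 pathway lists (y axis), with filled points and names for genes with an adjusted p below 0.05 in limma. Points are spread vertically within a list only for legibility, and Trem2, undetected in NZW, is drawn at its measured value and not at its bound.

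In the other table the lists could be read for 30 genes, of which 10 were tested. The single call was Sirpa, an inhibitory receptor of myeloid cells, with BALB/c minus 129/svj at -0.83 (SE 0.19, 1.78-fold, limma adjusted p = 0.033), where 2.36% of all tested probes were lower in BALB/c. It was lost with the methods' t-test after adjustment, which gave 0 calls in each of the 3 comparisons. BALB/c against DBA1 and DBA1 against 129/svj gave 0 calls in limma, with 1 and 2 genes at an unadjusted p below 0.05. In the mean over both tables, Pik3ap1 was higher in the resistant strains by 0.55 (SE 0.14, limma adjusted p = 0.0186). Sirpa was lower, at -0.50 (SE 0.11, limma adjusted p = 0.00816). These were the calls among 14 tested genes, where 6.54% of all tested probes were higher and 5.45% lower. The methods' t-test, which pooled the mice of both tables, called 0 of the 14 after adjustment. Pik3ap1 was detected in 1 of the 9 mice of BALB/c, DBA1 and 129/svj, where BALB/c had the lowest mean (5.19, against 5.46 in DBA1 and 5.30 in 129/svj), so its call came from B6 against NZW.

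Genes beside the called members were described as well. Of the 10 protein-coding genes nearest Fcer1g in RefSeq's order on chromosome 1, 9 were tested between B6 and NZW, and 2 were higher and 1 lower in B6 (9.24% and 9.6% over all probes). Higher were Pcp4l1 (0.79) and Usp21 (0.78), and lower was Adamts4 (-0.70). Apoa2, directly beside it, differed by -0.30 (SE 0.16, limma adjusted p = 0.225), which did not pass. Around Fcgr2b 3 of 10 were tested and 1, Fcgr4, was higher. Around Fcgrt on chromosome 7, 9 were tested, 3 higher and 1 lower, against the same shares.

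By correlation over the 6 mice of B6 and NZW, the genes most like Fcer1g among 11312 detected in every mouse were Qdpr, 1190028F09, Hoxa5, Tmem180 and Mrps17, with Pearson's r of 0.9976 to 0.9998. Most like Tyrobp were Mboat1, Arl4c, Prr13, Rapgef6 and Ifi27 (0.980 to 0.990), and most like Fcgrt were Hk3, Foxk2, Maged2, Pskh1 and Sh2d2a (0.948 to 0.986). Over the 9 mice of the other table, Fcgrt was most like Cep63, Hps1, Pdxdc1, 9630007E23Rik and Olfm1 (0.963 to 0.986). With so few mice, and genes picked as the highest of many, these values are descriptive only. Strain was the main source of spread for Fcer1g, and for Fcgrt in the other table, where they describe a shared strain pattern. Between B6 and NZW, Fcgrt differed by 0.02 (SE 0.11), so its values there describe spread between mice and not a strain pattern. The Tyrobp levels of B6 and NZW overlapped, so its values cannot be read as a strain pattern alone.

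Summed markers of leukocytes were compared between strains as well, and their association with the member levels was not computed. The summed macrophage markers were 5326, 8131 and 4558 in B6 and 4174, 3550 and 4295 in NZW, so that all B6 mice lay above all NZW mice (exact permutation p = 0.1, two-sided, the smallest that 3 against 3 mice allow). Of 14 tested macrophage markers 2, C1qb and Ms4a7, were called, both higher in B6. Summed neutrophil markers, 1746 to 8159 in B6 and 2947 to 3875 in NZW, overlapped. The sums of macrophage markers differed by 0.54 on the log2 scale, or 0.30 without B6 mouse 2 and still with no overlap. That mouse was the highest of B6 and NZW in Fcgr1, Fcgr3 and Tyrobp, but the lowest of B6 in Fcer1g (9.82). General leukocyte sums were also higher in every B6 mouse than in every NZW mouse (0.37, exact permutation p = 0.1), and proximal tubule sums lower (-0.21, exact permutation p = 0.1).

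In BALB/c, DBA1 and 129/svj, 5 macrophage markers had a probe, and their sum was 1012 to 2026 in DBA1, 324 to 482 in BALB/c and 316 to 1336 in 129/svj. DBA1 lay above BALB/c in every mouse, as it did for Fcgr2b, and overlapped 129/svj, which it did not for Fcgr2b. Without 129/svj mouse 3 the sums of DBA1 and 129/svj did not overlap either. The sum was led by Cd14, the 1 macrophage marker called, lower in BALB/c than in DBA1. Ms4a7 was detected in no mouse of this table. B and plasma cell markers, of which 1 had a probe there, were not detected, and in B6 and NZW 5 of 6 were detected in no mouse. Neutrophil sums were 202 to 318 in DBA1, 192 to 382 in BALB/c and 69.5 to 1072 in 129/svj. The part of leukocyte number in the Fcgr2b, Fcgr3 and Fcer1g levels was not tested.

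**Figure D5:**
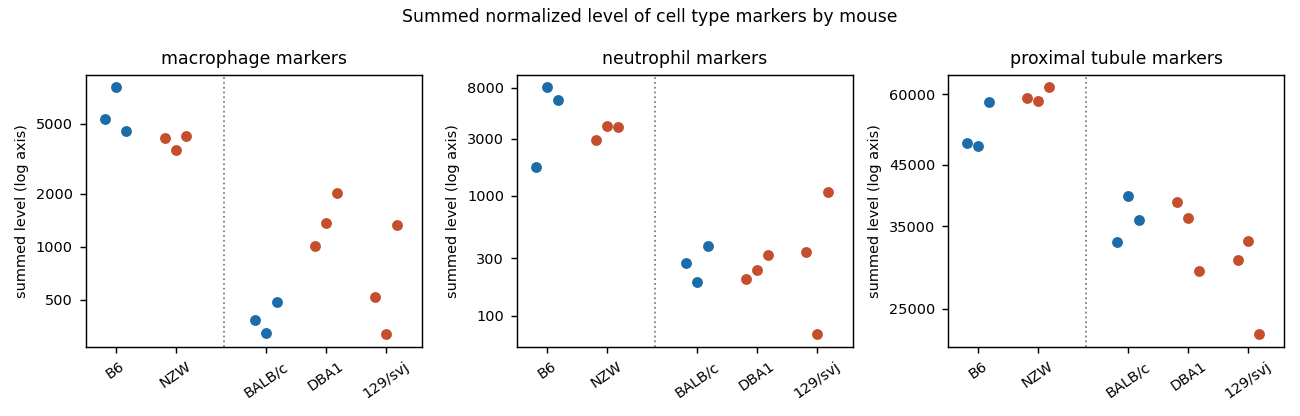
Summed normalized level (y axis, log scale) of macrophage, neutrophil and proximal tubule markers in each mouse, by strain (x axis), with resistant strains in blue and sensitive strains in red. The dotted line parts the 2 tables, in which different numbers of markers have a probe, so sums are compared within a table only; the 3 DBA1 mice, at 1012 to 2026, lie above the 3 BALB/c mice in macrophage markers.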

How the data were processed

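Signals of 18 arrays from 15 mice were used, in a pair of tables. Per the file headers, the values deposited for every probe were a BeadStudio signal intensity without normalization, a detection p-value, a bead number and a standard error over beads. Scan and slide batches are not given in the sources used here. Members and lists were chosen with earlier results of these data known, and genes beside called members were added after their values were seen.

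Within a table, background was removed from the intensities by the normexp model of limma, with the deposited p-values marking background (offset 16). Values were then quantile normalized, taken to log2 and averaged per mouse. The 14 spike-in control rows were left out. A probe entered the test where it was detected (p at most 0.05) in 3 or more mice, with lmFit and eBayes (limma 3.58.1, R 4.3.3, data.table version 1.17.8), two-sided, with 1 coefficient per strain, Benjamini-Hochberg adjustment over all tested probes and a threshold of 0.05. Resistant and sensitive strains were compared over 19886 probe pairs sharing a unique search key, normalized together. Summed markers were tested by exact permutation. Differences understate low signals because of the offset, and the number of arrays limits the precision.

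Named are all member probes, the 3 largest rises and 3 largest falls called among the pathway lists (less any not reported here), with 1 probe per gene (the brightest), and the 5 genes most correlated with Fcer1g, Tyrobp and Fcgrt. The alternatives covered background correction, offset, scaling, joint or separate normalization, the detection filter, repeat arrays, replicate and strain blocks, the variance model, the methods' t-test and leaving out each mouse. On simulated data, limma called 40.1% of 197 probes changed by 1 on the log2 scale for B6 against NZW (20010 tested) and 28.1% of 199 for BALB/c against DBA1 (21734 tested). Of the simulated calls, 8.14% and 0% were unchanged probes. Far fewer probes were changed in the simulation than were called in the data, so these shares need not hold there.

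Other marker lists gave these calls. T and NK cell markers had 1 higher in B6 (Nkg7), endothelial markers 1 higher (Ehd3) and proximal tubule markers 1 lower (Cubn). Some called genes of the lists are not reported here, and the list of oxidase and integrin genes is not drawn. General leukocyte, neutrophil, B and plasma cell, mast cell and dendritic cell markers gave 0 calls in limma. Between B6 and NZW, 3 general leukocyte and 8 neutrophil markers were tested, and 1 of each other list. In each comparison of the other table, 1 neutrophil and 1 mast cell marker were tested. The other lists had 0 tested there and could give no call. Over both tables, the B and plasma cell and dendritic cell lists again had 0 tested, and the others 1 or 2. Macrophage markers gave C1qb and Ms4a7 (higher in B6), Cd14 (lower in BALB/c than in DBA1) and, over both tables, Ms4a7 (higher in resistant strains). Ms4a7 was detected in no mouse outside B6 and NZW, so its call over both tables came from B6 against NZW.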

Additional observations from a re-analysis of the deposited data

Results flagged for a closer look

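For Fcer1g, the resistant minus sensitive difference was not the same in the 2 tables: BALB/c minus the mean of DBA1 and 129/svj, less B6 minus NZW, was -4.97 on the log2 scale (SE 0.18, limma adjusted p = 8.06e-11). The probe was at background in the 4 strains other than B6, so this fitted size has no exact meaning and restates detection in B6 alone.

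For Fcgr2b the same difference was -0.67 (SE 0.17, limma adjusted p = 0.0213), with a B6 part of 0.36 and a BALB/c part of -0.31. These parts were read over the paired probes normalized together, where neither passed on its own (limma adjusted p = 0.106 and 0.113). Normalized within its own table, B6 minus NZW was 0.46 and passed at the edge of the threshold (limma adjusted p = 0.0441). Table and strain coincide in part here, and a cause that lies in the tables and one that lies in the strains cannot be told apart.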

How the results depend on the processing

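The 2 member calls between B6 and NZW (Fcer1g, Fcgr2b) became 1 under 75th percentile scaling, joint normalization, no detection filter, the replicate block and the methods' t-test with adjustment, and 1 with detection required in every mouse, where Fcer1g cannot be tested. Leaving out 1 mouse gave 0 to 2: 0 without B6 mouse 1 or 3, where the filter drops Fcer1g, 1 without B6 mouse 2 (Fcgr3), 1 without NZW mouse 1 or 2 (Fcer1g). Replicate numbers did not pair the mice (same-number correlations of deviations -0.26 to 0.39), and with the replicate block the Fcgr2b adjusted p was 0.0752. BALB/c against 129/svj had 3 calls by the unadjusted methods' t-test. Resistant against sensitive had 2 calls under 75th percentile scaling and 0 to 1 with a mouse left out. It had 0 with detection in every mouse, with strain as a random block and with the adjusted methods' t-test, which pooled the mice of both tables. It also had 0 in BALB/c, DBA1 and 129/svj alone (chosen after seeing the data).

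Directions that turned were of differences that passed no test. Fcgrt, B6 minus NZW, was -0.19 (75th percentile) and -0.0041 (joint), and -0.039 to 0.062 with a mouse left out. Fcgrt, BALB/c minus DBA1, was 0.053 (75th percentile), 0.028 (joint), 0.015 (repeat arrays left out) and 0.010 (repeats counted as a mouse of their own), and -0.038 to 0.034 with a mouse left out. Fcgr3, DBA1 minus 129/svj, was -0.0064 without repeat arrays and -0.23 to 0.55 with a mouse left out. Fcgr2b, resistant minus sensitive, was -0.056 by the methods' t-test (mice of both tables pooled), -0.021 with strain as a random block, -0.31 in BALB/c, DBA1 and 129/svj alone, and -0.027 to 0.068 with a mouse left out. Ptpn6 was 0.13 in B6 and NZW alone. The cause was not tested. The called members among BALB/c, DBA1 and 129/svj kept their calls in 12 of 12 alternatives and with each mouse left out.

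Over all probes, B6 against NZW had 3159 calls of 16766 tested, 1852 by the adjusted methods' t-test, 1345 with joint normalization, where the paired probes alone, 6074, were tested, and 1724 to 2626 with a mouse left out, against 4772 by the unadjusted methods' t-test. In the same order, BALB/c against DBA1 had 909 calls, then 399, 333, 452 to 1163 and 2728, BALB/c against 129/svj 763, then 318, 308, 443 to 944 and 2235, and DBA1 against 129/svj 709, then 218, 317, 426 to 731 and 1786, of 15817 tested, or 5446 with joint normalization. With repeat arrays counted as mice these became 1718, 1275 and 1198, and with detection in every mouse 587, 466 and 368. Resistant against sensitive had 827, and 32 by the adjusted methods' t-test (mice of both tables pooled), 412 with detection in every mouse and 105 with strain as a random block. Signals near background limit Fcgr1, Tyrobp, Syk and Lyn, for which small differences could not be seen.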
